A study of Mus musculus with 18 samples.

Results

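KDM2A is an enzyme that takes methyl groups off lysine 36 of histone H3, and H3K36me2, the dimethylated form of that lysine, is its substrate. The ChIP-seq peaks of the enzyme and of its substrate mark were set side by side in the same cells, splenic B cells whose mice kept a functional Mir155 gene (WT). The rule took every peak list of the WT genotype made with an antibody to KDM2A (3 lists) or to H3K36me2 (3 lists), which is 6 of the 12 peak lists and 6 of the 18 samples of the series. These lists hold 348599 of its 590705 peaks, 79308 of KDM2A and 269291 of H3K36me2. Mice lacking Mir155 (KO) gave the other 6 lists, which are used here only to ask where the WT comparison differs. The cells were purified by removing those with CD43, CD4 or Ter119 on their surface and kept for 2 days at 1% oxygen and 5% CO2 with anti-CD40 (1 µg/ml), F(ab')2 anti-IgM (5 µg/ml) and IL-4 (4 ng/ml), and all libraries share this culture. Cells were fixed with EGS, a long crosslinker that reaches proteins held on DNA through other proteins, and then with formaldehyde. Chromatin of 13.5 µg went into each KDM2A precipitation and of 1 µg into each H3K36me2 precipitation, and the KDM2A antibody was a gift from another laboratory. Replicate 1 came from a male and replicates 2 and 3 from females in each group. The labels give no age and do not say that libraries came from separate animals, so p-values here measure only the spread between these libraries, which may be technical.

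KDM2A holds a CXXC zinc finger that binds CpG dinucleotides when they are not methylated, and a JmjC domain that carries out the demethylation. CpG islands, stretches of DNA dense in unmethylated CpG, lie at the starts of many genes, above all of genes used in every cell. H3K36me2 is laid down by the NSD methyltransferases and ASH1L and is known as a broad mark of genes and of the DNA between them, and SETD2 turns it into the trimethylated form along transcribed genes.

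Sequences from a few sites of high mean fold or great width are shown as examples, and their CpG does not stand for that of the lists. The fold of a peak is the authors' ratio of the precipitate over its control. The windows are the 200 bases nearest the centre of the site that touch no exon, read from the plus strand of GRCm38, in lower case with every CpG in capitals. The KDM2A window in the promoter of Tmsb10, which encodes thymosin beta 10, an actin-binding protein, spans chr6:72958749-72958948 directly upstream of the start, and holds 13 CpG. The KDM2A window at chr17:33995611-33995810, just past the 3′ end of the MHC class I gene H2-K1, holds 2 CpG and lies in a site 17360 bp wide. The H3K36me2 window at chr6:47738059-47738258 (0 CpG, 79% repeat-masked) lies between genes. A further pair comes from the widest sites and was chosen after values were seen, a KDM2A site in an intron of Sipa1 at chr19:5654274-5654473 (9 CpG, inside an island) and an H3K36me2 domain in an intron of Ets1 at chr9:32640337-32640536 (0 CpG). Over the 5 widest sites, from the widest on, the windows of KDM2A held 0, 9, 5, 12 and 0 CpG and those of H3K36me2 2, 2, 6, 0 and 0, so the ranges overlap and the pair shown lies toward their ends.
KDM2A, Tmsb10 promoter: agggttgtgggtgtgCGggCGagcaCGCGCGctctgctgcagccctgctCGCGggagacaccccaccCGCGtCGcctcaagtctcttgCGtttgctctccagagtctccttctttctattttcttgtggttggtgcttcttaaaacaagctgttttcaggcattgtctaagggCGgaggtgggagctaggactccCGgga
KDM2A, beside H2-K1: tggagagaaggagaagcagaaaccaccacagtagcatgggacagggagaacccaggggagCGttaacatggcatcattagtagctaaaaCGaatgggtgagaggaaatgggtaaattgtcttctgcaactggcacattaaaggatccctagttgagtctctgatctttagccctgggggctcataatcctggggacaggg
KDM2A, intron of Sipa1: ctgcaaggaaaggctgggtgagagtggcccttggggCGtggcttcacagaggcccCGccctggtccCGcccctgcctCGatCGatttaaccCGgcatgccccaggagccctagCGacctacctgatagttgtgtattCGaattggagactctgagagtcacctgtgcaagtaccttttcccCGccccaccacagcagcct
H3K36me2, repeat between genes on chromosome 6: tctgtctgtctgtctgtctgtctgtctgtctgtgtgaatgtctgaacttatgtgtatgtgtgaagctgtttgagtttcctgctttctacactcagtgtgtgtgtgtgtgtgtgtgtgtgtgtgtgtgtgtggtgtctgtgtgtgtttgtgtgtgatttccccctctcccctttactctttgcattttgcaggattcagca
H3K36me2, intron of Ets1: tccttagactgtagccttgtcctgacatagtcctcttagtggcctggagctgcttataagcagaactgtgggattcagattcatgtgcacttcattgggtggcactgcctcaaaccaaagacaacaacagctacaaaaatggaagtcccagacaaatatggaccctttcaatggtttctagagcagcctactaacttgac

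The mark covered much more of the genome than the enzyme. Outside the mitochondrial genome, the KDM2A lists held 29102, 23369 and 26828 peaks and the H3K36me2 lists 85387, 89768 and 94136. The means were 26433 ± 2887 and 89764 ± 4375 peaks (SD, n = 3 each), a ratio of 3.40. KDM2A peaks covered 1.11%, 0.770% and 0.876% of the genome, and H3K36me2 peaks covered 4.17%, 5.32% and 5.25%. H3K36me2 peaks were also wider, with a median of 858, 1019 and 939 bp against 698.5, 626 and 611 bp for KDM2A. Peaks over 2 kb made up 20.6% ± 2.72 of the H3K36me2 lists and 8.20% ± 1.64 of the KDM2A lists (SD, n = 3 each), and they held 55.3% and 31.6% of the covered bases. The order of widths went with position. Intergenic peaks were the widest class of H3K36me2 (1002 ± 87.6 bp, against 923 ± 60 bp at promoters), whereas promoter peaks were the widest class of KDM2A (783 ± 61.0 bp, against 496 ± 54.2 bp between genes; SD, n = 3 each).

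These differences ran the other way among the most significant peaks. With only peaks of a q-value of 0.001 or less (−log10 q of at least 3), the KDM2A lists kept 5333, 4878 and 4539 peaks and the H3K36me2 lists 571, 734 and 339. The median width was then 943 ± 104 bp for KDM2A and 539 ± 108 bp for H3K36me2 (SD, n = 3 each). Over the whole lists the median −log10 q was 1.87 ± 0.0963 for KDM2A and 1.55 ± 0.0778 for H3K36me2 (SD, n = 3 each). The depth of each library is unknown, since the lists hold no read counts, and the strength of the antibodies, the chromatin used and the extent of the targets cannot be told apart.

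KDM2A peaks stood at gene starts more often than H3K36me2 peaks. Promoter/TSS peaks were those centred no more than 2 kb from any annotated transcription start site (TSS), intragenic peaks those centred elsewhere in a gene, and intergenic peaks all others. The promoter/TSS share was 45.8%, 53.1% and 48.3% of the KDM2A lists and 18.1%, 16.8% and 16.9% of the H3K36me2 lists. Every KDM2A list stood above every H3K36me2 list, by 31.8 points on average. The intragenic share was 31.0% ± 2.06 for KDM2A and 46.7% ± 0.856 for H3K36me2, and the intergenic share 19.9% ± 1.68 and 36.02% ± 0.140 (SD, n = 3 each). Promoter windows make up 2.57% of the genome where they hold an island and 8.18% where they do not. Of the bases under KDM2A peaks, 45.2% ± 3.85 lay in the first kind and 13.1% ± 0.388 in the second. The values for H3K36me2 were 5.76% ± 0.560 and 10.7% ± 0.317 (SD, n = 3 each).

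The median distance of a peak centre to the nearest TSS was 2595, 1574 and 2251 bp for KDM2A and 8801, 9110 and 9231 bp for H3K36me2. Within 500 bp of a TSS lay 34.5% ± 3.94 of KDM2A peaks and 4.44% ± 0.332 of H3K36me2 peaks. Between 2 and 5 kb lay 15.7% ± 0.434 and 16.99% ± 0.208. Beyond 10 kb lay 22.3% ± 2.35 and 47.1% ± 0.743 (SD, n = 3 each). Within 5 kb of a TSS, 57.8% ± 0.356 of KDM2A peaks lay on the downstream side of the nearest TSS, against 47.4% ± 0.289 of H3K36me2 peaks (SD, n = 3 each). Exons held the centres of more KDM2A peaks, with 9.07% ± 1.08 in coding and 13.0% ± 1.53 in untranslated exons, against 1.31% ± 0.0869 and 1.503% ± 0.0562 of H3K36me2 peaks. Introns held 44.3% ± 1.56 of KDM2A and 53.5% ± 0.426 of H3K36me2 peaks (SD, n = 3 each).

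**Figure D1:**
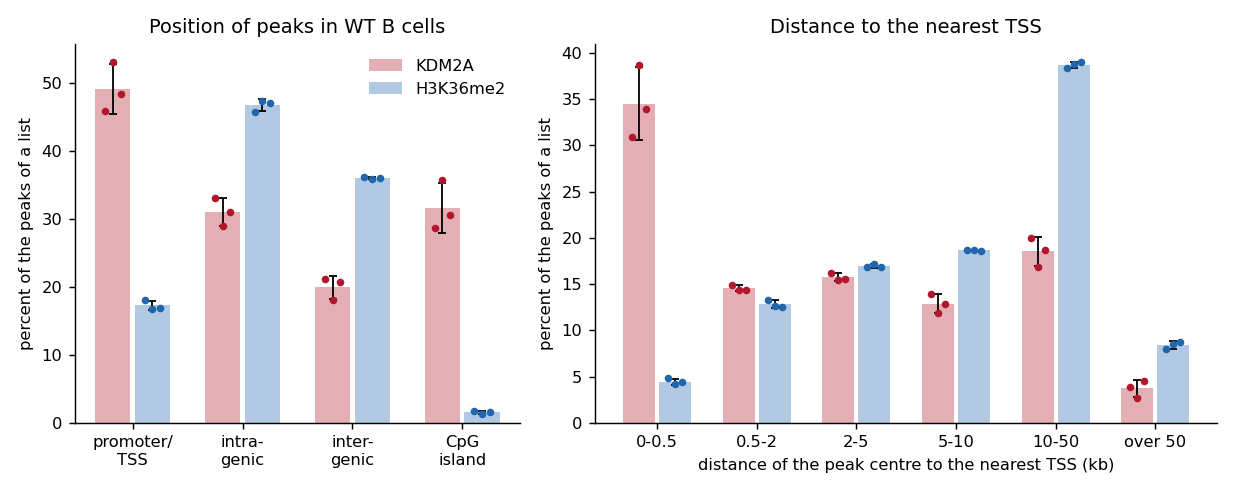
Percent of the peaks of each WT list by position (left) and by distance in kb of the peak centre to the nearest TSS (right), with a bar for the mean of 3 lists, an error bar for the SD and a point for each list. Of KDM2A peaks 49.1% fall at promoters and 34.5% within 0.5 kb of a TSS, against 4.44% of H3K36me2 peaks within 0.5 kb.

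CpG islands gave the largest ratio between the antibodies of the measures compared. An island lay under 28.6%, 35.7% and 30.6% of KDM2A peaks and under 1.77%, 1.30% and 1.56% of H3K36me2 peaks, a ratio of 20.5. Islands make up 0.391% of the genome. Read from the islands, KDM2A peaks touched 53.4% ± 0.669 of the 16102 islands and H3K36me2 peaks 8.73% ± 1.17 (SD, n = 3 each). The islands under KDM2A peaks numbered 8700, 8622 and 8487, a narrower spread than that of the peaks themselves. The median peak held 1.86 ± 0.208 CpG per 100 bp in KDM2A lists and 0.852 ± 0.0222 in H3K36me2 lists, where the genome holds 0.826. Even at promoters few H3K36me2 peaks touched an island. Of promoter/TSS peaks, 60.8% ± 2.57 of KDM2A and 7.35% ± 1.11 of H3K36me2 did so (SD, n = 3 each). KDM2A peaks away from promoters were poor in islands (3.42% ± 0.551) but still held more CpG than H3K36me2 peaks there. Intergenic peaks held 1.08 ± 0.0550 and 0.784 ± 0.0198 CpG per 100 bp (SD, n = 3 each).

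In all 11 measures compared between the lists (number, bases covered, width, the 3 position shares, distance, island share, CpG density, and the genes with a start or a body under peaks), the 3 KDM2A values lay wholly above or below the 3 H3K36me2 values. Each gave a two-sided exact permutation p of 0.1, the smallest that 3 against 3 lists allow, and 0.1 after Benjamini-Hochberg adjustment over the 11 measures, so none could pass a threshold of 0.05. Taking the 23369 peaks of highest fold from every list left the promoter/TSS shares at 51.3% ± 1.65 and 17.4% ± 0.577 and the island shares at 34.4% ± 1.21 and 1.83% ± 0.233 (SD, n = 3 each). Stricter peaks (−log10 q of at least 3) moved the promoter/TSS shares to 81.4% ± 1.57 and 19.9% ± 1.02 and the island shares to 75.1% ± 2.04 and 1.26% ± 0.770. A narrower promoter window, from 1 kb upstream to 100 bp downstream, held 29.2% ± 3.09 and 5.60% ± 0.346 (SD, n = 3 each).

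The mark covered KDM2A peaks more than the genome at large, by an amount that differed with place. Lists of the same replicate number were overlaid. H3K36me2 peaks covered 21.7%, 19.6% and 20.8% of the bases under KDM2A peaks, which is 5.21, 3.69 and 3.96 times their share of the genome (4.29 ± 0.812, SD, n = 3). The mean ratio was 5.84 with equal numbers of peaks and 15.2 with peaks of −log10 q of at least 3. In the other direction KDM2A peaks covered 4.03% ± 1.54 of the bases under H3K36me2 peaks. The genome was then split into kinds of place and the mark measured inside and outside KDM2A peaks in each. Between genes it covered 40.6% ± 1.24 of the bases inside KDM2A peaks and 3.76% ± 0.542 outside. In genes outside promoter windows the values were 22.6% ± 0.721 and 5.54% ± 0.864, and in promoter windows without an island 25.2% ± 0.813 and 6.13% ± 0.742. In promoter windows with an island they were 11.7% ± 1.49 and 10.8% ± 0.858 (SD, n = 3 each). The pairs there did not go one way, with 13.1%, 10.1% and 11.8% inside and 9.78%, 11.2% and 11.4% outside. The exact sign-flip test gave p = 0.75 at island promoters and p = 0.25 in the other places, the smallest that 3 pairs allow.

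**Figure D2:**
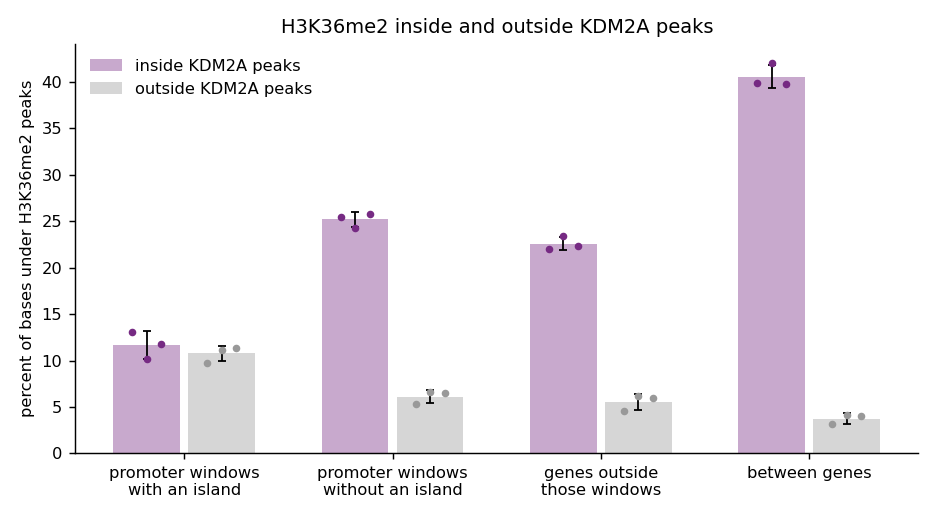
Percent of bases under H3K36me2 peaks inside and outside KDM2A peaks, by kind of place in the genome, with bars for the mean of 3 pairs of lists, error bars for the SD and points for each pair. The bars differ between genes (40.6% against 3.76%) and overlap at promoter windows with an island (11.7% against 10.8%).

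Promoter peaks were here split by whether the KDM2A peak itself touched an island, not by whether the window held one. At peaks of the first kind, called island promoters here, the mark dipped at the centre of the KDM2A peak and rose beside it. At these centres, 8.36%, 6.82% and 8.08% of positions lay under an H3K36me2 peak. The value reached 24.5% ± 1.77 at 1500 bp upstream and 14.2% ± 0.359 at 1500 bp downstream, read along the nearest gene (SD, n = 3 each). The centre minus the mean of the points 2000 bp on either side was −8.55, −12.3 and −11.2 points. At the other KDM2A peaks the centre was not lower than the mean of the points 2000 bp on either side. The same difference was 1.90 ± 1.30 points at promoter peaks off an island, 2.62 ± 0.670 points at intragenic and 2.90 ± 0.660 points at intergenic peaks. It was positive in every pair (SD, n = 3 each, exact sign-flip p = 0.25 for each class). At promoter peaks off an island it was 0.447 ± 0.951 points with the flank at 1000 bp, and 1 of the 3 pairs was negative (SD, n = 3). There the mean at the centre, 21.4%, lay below that at 1500 bp upstream, 22.7%, and above that at 1500 bp downstream, 17.9%. Over all promoter peaks the centre was 5.76 ± 1.96 points below its flanks (SD, n = 3, exact sign-flip p = 0.25). Centre minus flank was −1.97 points with equal numbers of the strongest peaks, −2.86 points with the flank at 5000 bp, and 0.0409 points with peaks of −log10 q of at least 3, where the mark has few peaks left. Intergenic KDM2A centres lay under the mark most often (35.4% ± 1.99), and among 4 equal groups of these peaks by fold the strongest held 41.3% ± 0.682 and the weakest 30.0% ± 3.04. At island promoters the strongest and weakest groups held 7.55% ± 0.820 and 7.27% ± 0.727 (SD, n = 3 each).

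**Figure D3:**
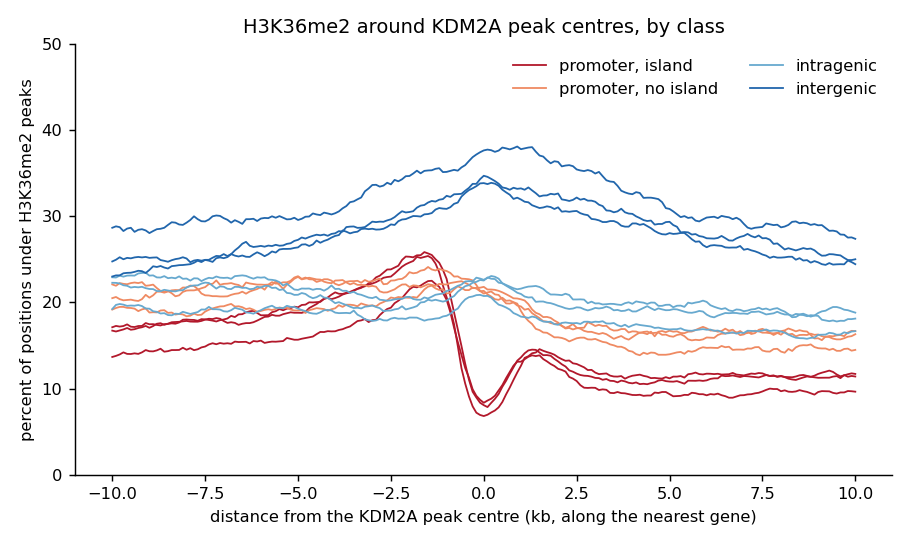
Percent of positions under H3K36me2 peaks against the distance in kb from the centre of KDM2A peaks, oriented along the nearest gene, by class of peak, with a line for each of the 3 pairs of lists. Promoter peaks that touch an island show a trough at the centre (mean 7.75%) between shoulders of 24.5% upstream and 14.2% downstream, and intergenic peaks a rise to 35.4%.

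The same shape appeared at the gene starts themselves, which were defined without the peaks. Of the 21938 protein-coding genes, 12147 have an island within 2 kb of the start. At the start of these genes KDM2A peaks covered 55.2% ± 1.01 of genes and H3K36me2 peaks 5.58% ± 0.413. The mark was lowest at 100 bp downstream (5.45%) and highest at 1300 bp, with 19.1% upstream and 10.7% downstream. At 10000 bp upstream it was 11.4% ± 1.46. At the 9791 genes without an island, KDM2A reached 6.97% ± 1.10 at the start and the mark stayed between 5.88% and 9.65% across the 10 kb on either side (SD, n = 3 each).

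**Figure D4:**
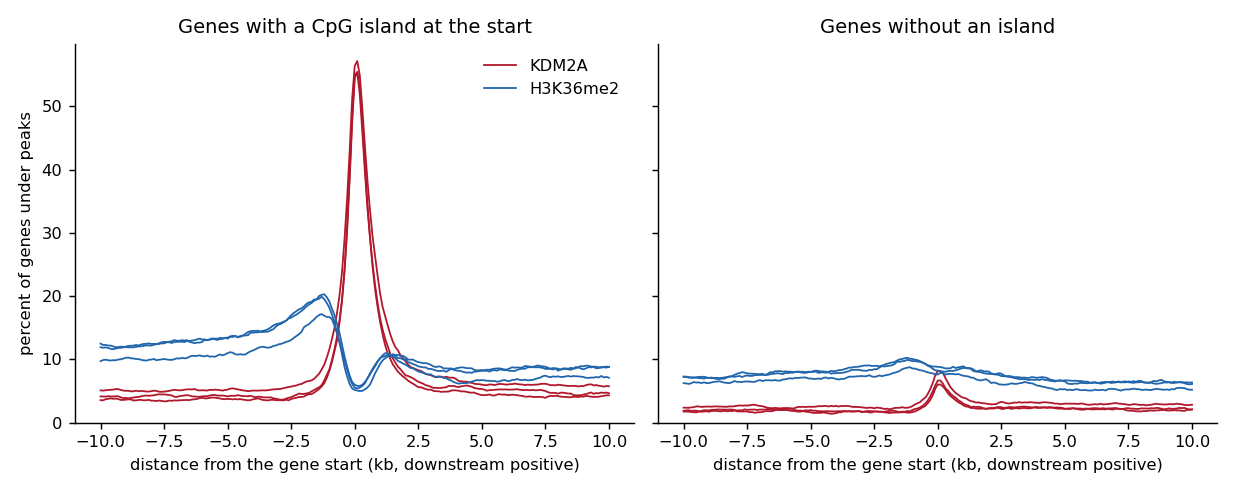
Percent of protein-coding genes under KDM2A and H3K36me2 peaks against the distance in kb from the gene start, for genes with and without a CpG island, with a line for each of the 3 lists of an antibody. At island genes KDM2A covers a mean of 55.2% of genes at the start and H3K36me2 5.58%, near its lowest.

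Genes with the enzyme at the start carried more of the mark around it. Among island genes, an H3K36me2 peak touched the window of 2 kb on either side of the start in 56.4% ± 1.46 of genes with a KDM2A peak in that window and in 17.9% ± 2.21 of genes without one. At the start itself the values were 7.05% ± 0.458 and 2.35% ± 0.473, and at the point 2 kb upstream 22.5% ± 2.20 and 5.44% ± 1.15. Over the gene bodies the mark covered 9.20% ± 1.23 and 3.00% ± 0.549 of the bases. Among genes without an island, the touched share was 64.9% ± 1.13 with KDM2A and 16.0% ± 1.54 without (SD, n = 3 each). Along the 14164 genes of at least 10 kb, the mark fell from 9.74% ± 0.626 of the bases in the first of 10 equal parts of the gene to 4.52% ± 0.473 in the last. KDM2A fell from 11.6% ± 1.07 to 3.15% ± 0.644 by the second part (SD, n = 3 each).

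Lists of one antibody overlapped only in part. Peaks were joined into intervals, and an interval was counted as bound when at least 2 of the 3 lists held it. Of 52662 KDM2A intervals, 15081 were bound, and of 147149 H3K36me2 intervals, 54261. Bases in all 3 lists made up 14.1% of those in any for KDM2A and 13.1% for H3K36me2. The bound KDM2A intervals were more of the promoter kind than single lists, 68.0% against 49.1%, and 55.0% touched an island. Of the bound KDM2A intervals, 6899 (45.7%) touched a bound H3K36me2 interval, with 39.4% at promoters, 48.9% in genes and 76.7% between genes. The 6190 bound H3K36me2 intervals that touched KDM2A were 11.4% of theirs. They had a median width of 3565 bp, against 2156 bp for the rest, and 28.0% of them held an island, against 0.680%. A wide interval has more room for a touch, and its part in this was not tested. Of the bound KDM2A intervals at promoters that touched an island, 4950 touched no bound H3K36me2 interval. The median gap to the nearest was 4956 bp, and 1875 (37.9%) had it within 2 kb.

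The site of highest mean fold was the same for both antibodies, chr9:3032543-3032954 over an exon of the predicted gene Gm10717, with folds of 4.96, 7.48 and 6.57 for KDM2A and 2.69, 6.27 and 4.63 for H3K36me2. It belongs to a run of predicted genes near one end of the assembled chromosome, where reads of similar copies may mix, and its values are uncertain. The next KDM2A sites were chr17:33987031-34004390 over H2-K1, at a mean fold of 5.92 ± 0.914, and chr6:72954587-72959020 over Tmsb10, at 5.60 ± 0.865 (SD, n = 3 each). H2-K1 has close relatives in the MHC, so its reads may also be shared. An H3K36me2 site of high fold, chr6:47737997-47738321 at 3.50 ± 0.183, lay between genes (SD, n = 3). The widest intervals in all 3 lists differed in the genes they touched. Intervals join peaks across lists, and the widest single peak was 28290 bp for KDM2A and 53964 bp for H3K36me2. Each of the 5 widest of either antibody was touched by peaks of the other in all 3 lists. The widest of KDM2A, 42230 bp at chr8:70752028-70794257, ran over 4 protein-coding genes, Rab3a, Mpv17l2, Pik3r2 and Mast3. The 5 widest of KDM2A each held an island and from 2 to 5 protein-coding genes, and others covered the NF-κB gene Rela with Sipa1 and the antigen-processing genes Psmb8, Psmb9, Tap1 and Tap2. The widest of H3K36me2, 152975 bp at chr12:79884098-80037072, touched no protein-coding gene, and of the 5 widest only those in Rad51b and Ets1 touched any, with 1 gene each.

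Chromosomes ranked differently for the enzyme and the mark. KDM2A covered most of chromosome 11 (2.38%) and chromosome 17 (2.04%) and least of chromosome 18 among the autosomes (0.444%). H3K36me2 covered most of chromosome 10 (7.76%) and chromosome 11 (7.41%) and, among the autosomes, least of chromosome 18 (3.63%). Over the autosomes the ratio of mark to enzyme ran from 3.06 on chromosome 17 to 12.3 on chromosome 13. Chromosome X was low for both, at 0.0332%, 0.0741% and 0.0805% for KDM2A and 0.0371%, 0.283% and 0.255% for H3K36me2. The male list was the lowest in each antibody, and with 1 male list per antibody the sex and the library cannot be told apart. Over bins of 100 kb on the autosomes, the percent covered had a Spearman's rho of 0.58 to 0.63 between a KDM2A and an H3K36me2 list, 0.70 to 0.73 between KDM2A lists and 0.94 to 0.95 between H3K36me2 lists. These describe 24620 bins that share gene density and base composition. The mitochondrial genome held 3 KDM2A peaks in each list and no H3K36me2 peak. It carries no histones, and apart from the totals of peaks in the opening it was left out of every count.

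By gene, KDM2A reached more starts and H3K36me2 more bodies. KDM2A peaks touched the start window of 9786, 9496 and 9529 protein-coding genes (43.8% ± 0.724) and H3K36me2 peaks that of 7388, 7543 and 7784 (34.5% ± 0.910). Of the 17798 genes with a length of at least 5 kb, KDM2A touched the body, from 2 kb past the start to the end, of 6548, 5419 and 5966, and H3K36me2 that of 7532, 8032 and 7913 (SD, n = 3 each). The order for bodies was the other way with the 23369 peaks of highest fold per list, where KDM2A touched 5493 ± 139 and H3K36me2 4040 ± 54.7, and with peaks of −log10 q of at least 3, where they touched 1315 ± 178 and 221 ± 80.01 (SD, n = 3 each). In at least 2 of 3 lists, 5766 genes had both at the start, 3887 KDM2A only, 1822 H3K36me2 only and 10463 neither. Island genes made up 3550 of the KDM2A-only and 480 of the H3K36me2-only genes.

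The percent of each start window under peaks was tested with limma over the 11840 genes covered in at least 2 of the 6 lists, and 10098 genes were not tested. KDM2A covered more at 1423 genes (12% of those tested) and H3K36me2 at 773 (6.53%), at an adjusted p under 0.05. A gene that passed this filter through a single antibody had to differ, so the counts describe the tested genes and not all genes. Of the KDM2A-higher genes, 93.3% have an island, of the H3K36me2-higher genes 19.4%, and of all tested genes 78.1%. The median difference among those called was 45.3 and −53.0 points, and 5.47 points over all tested. The KDM2A lists were all above the H3K36me2 lists at 26.2% of the tested genes and all below at 13.2%. Without an H3K36me2 list the counts in the 2 directions were close or turned, with 748, 655 and 668 KDM2A-higher against 812, 661 and 640 H3K36me2-higher genes without replicate 1, 2 and 3. Without KDM2A replicate 1, 2 and 3 the counts were 964, 1039 and 1087 against 300, 300 and 293. By rank within each list they were 1273 and 1246. Scaled to the share of the genome each list covers, on the log2 scale with a pseudocount of 1, KDM2A was higher at 6290 genes and H3K36me2 at 605. With equal numbers of the strongest peaks the counts were 4017 and 106, and with peaks of −log10 q of at least 3 they were 1425 and 0 (limma, 0 also at an unadjusted p under 0.05).

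Over gene bodies the balance was opposite with the whole lists, but not with the strongest peaks. Of 10047 bodies tested, H3K36me2 covered more at 3365 (33.5%) and KDM2A at 672 (6.69%). The genes of the first kind were long, with a median of 61910 bp against 33550 bp over all tested, and those of the second short, at 13676 bp. H3K36me2 lists were all above at 46.5% and KDM2A lists at 11% of the tested bodies. Without KDM2A replicate 1, 2 and 3 the H3K36me2-higher count was 2019, 1932 and 1885. Scaled to the genome share of each list, the counts were 2283 for H3K36me2 and 1692 for KDM2A, and without the filter 635 and 173. With equal numbers of the strongest peaks the balance turned, with 57 H3K36me2-higher and 302 KDM2A-higher bodies, and with peaks of −log10 q of at least 3 the counts were 0 (limma, 2 at an unadjusted p under 0.05) and 163. Of the 1066 KDM2A-higher starts with such a body, 155 had a body where H3K36me2 was higher and 227 one where KDM2A was.

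At gene starts, 12 genes shared the largest difference, with all of the window under KDM2A and none under H3K36me2 in all lists. The first 5 by name were 4930442H23Rik, Cd68, Dapk3, Dusp2 and Egr3 (limma adjusted p = 0.00139 each). These genes passed the filter through KDM2A alone and had to differ, so their p-values add nothing to the coverage itself. Cd68 encodes a lysosomal protein known from macrophages, Dapk3 a kinase, Dusp2 a phosphatase that acts on MAP kinases, and Egr3 a transcription factor induced by antigen receptors. Dusp2 (ENSMUSG00000027368.6) spans chr2:127336159-127338376 and Egr3 (ENSMUSG00000033730.4) chr14:70077203-70082614, and each has an island at its start. 4930442H23Rik and Dapk3 start within the same stretch of chromosome 10, so their windows overlap.

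The largest differences in favour of the mark were at Ets1, Fasl and Klrb1c, with 100% of the window under H3K36me2 and 0% under KDM2A in every list (adjusted p = 0.00139). Cd5l followed with 100%, 100% and 92.0% against 0%, and Cd6 with 100% in each list against 0%, 10.7% and 0% (adjusted p = 0.00141 each). None of the 5 has an island at its start. Ets1, Fasl, Klrb1c and Cd5l passed the filter through H3K36me2 alone and had to differ, so their p-values add nothing to the coverage itself. Ets1 is a transcription factor of lymphocytes, at chr9:32636221-32757820. Fasl encodes the death ligand of cytotoxic cells, Klrb1c the NK1.1 receptor of natural killer cells, Cd5l a protein secreted by macrophages and Cd6 a receptor of T cells. With equal numbers of peaks the calls at Klrb1c (adjusted p = 0.105) and Cd6 (0.393) were lost, and that at Cd6 also when scaled to genome share (0.0505). Fasl was covered in too few lists to be tested with equal numbers of peaks, and none of the 5 was tested with peaks of −log10 q of at least 3.

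Over bodies, 15 genes were covered whole by KDM2A and not at all by H3K36me2. The first 5 by name were Brd2, Cactin, Calr, Cd74 and Coro1b (limma adjusted p = 0.00167 each). These genes passed the filter through KDM2A alone and had to differ, so their p-values add nothing to the coverage itself. Brd2 is a reader of acetylated histones, Calr a chaperone of the endoplasmic reticulum, and Cd74 the invariant chain of MHC class II. Each of these genes is between 5085 and 10612 bp long. With peaks of −log10 q of at least 3, Cactin and Coro1b were no longer called (adjusted p = 0.173 each). In the other direction the body of Klrb1c was covered to 79.1%, 100% and 100% by the mark and to 0%, 0% and 3.18% by KDM2A (adjusted p = 0.00234). Ifit1bl1, which passed the filter through H3K36me2 alone, D730001G18Rik, Cib3 and Slc22a12 followed, with differences of −89.9 to −83.4 points. With equal numbers of peaks none of these 5 was called, with limma adjusted p from 0.0632 at D730001G18Rik to 0.383 at Cib3. D730001G18Rik and Slc22a12 were also not called when scaled (0.0545 and 0.257) or by rank (0.0542 and 0.211).

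Among genes of the H3K36 pathway, Kdm2b, the paralog of Kdm2a, had the clearest excess of the enzyme at its start, with 100%, 98.5% and 77.0% of the window under KDM2A and 29.0%, 16.1% and 0% under H3K36me2 (limma adjusted p = 0.00411). The start of Kdm2a (chr19:4314419-4398285) was covered to 26.2%, 39.4% and 37.2% by its own protein's peaks and to 51.0%, 0% and 0% by the mark, and the groups overlap (adjusted p = 0.389). The gene was called KDM2A-higher without H3K36me2 replicate 1 (limma adjusted p = 0.0454), with equal numbers of peaks (0.0114) and when scaled (0.0195). Of the 7 H3K36 methyltransferase genes, 5 had KDM2A and 4 had H3K36me2 at the start in at least 2 lists, and 6 have an island. The shares are 44.0% and 34.6% over all genes, and 70.2% and 44.9% over genes with an island. Ash1l held 38.5%, 37.7% and 36.9% under KDM2A and 10.6%, 0% and 0% under the mark (adjusted p = 0.0255). This call was lost without KDM2A replicate 1 (0.0504) or 2 (0.0513) and without H3K36me2 replicate 2 (0.0637) or 3 (0.0641). Nsd3 held 53.8%, 36.3% and 44.3% against 0%, 0% and 28.4% and missed the threshold (adjusted p = 0.0574), but was called with stricter peaks (0.00533), equal numbers (0.0256), when scaled (0.00366) and without H3K36me2 replicate 3 (0.0360). In the bodies of these genes 3 had KDM2A and all 7 had the mark in at least 2 lists, against 31.5% and 43.5% of all bodies. Nsd2 had 2.16%, 5.19% and 3.87% of its body under H3K36me2 and none under KDM2A (adjusted p = 0.0294), and Nsd3 had 1.60%, 3.71% and 1.78% against 0.277%, 0% and 0% (adjusted p = 0.0456). Nsd2 passed the filter through H3K36me2 alone. Both body calls were lost without the filter on coverage (limma adjusted p = 0.198 for Nsd2 and 0.275 for Nsd3) and when any KDM2A list was left out (0.0793 to 0.0813 for Nsd2 and 0.0979 to 0.117 for Nsd3), and that of Nsd3 also when scaled (0.0911) or ranked (0.453). Neither was tested with equal numbers of peaks. Of the 8 demethylase genes, 7 had KDM2A and 6 had H3K36me2 at the start, and of the 12 genes of CXXC proteins 9 and 7. The methyltransferase genes Kmt2a and Kmt2b, which also hold a CXXC finger, and Cxxc5 were KDM2A-higher along with Kdm2b, 4 of 10 tested in that list, and 0 were H3K36me2-higher (limma, 0 also at an unadjusted p under 0.05), where 12% and 6.53% of all tested starts were.

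Genes that mark the B cell carried both. Of 16 B cell identity genes, 14 had KDM2A and 15 had H3K36me2 at the start in at least 2 lists, where the shares over all genes are 44.0% and 34.6%. Only 3 of the 16 have an island. All were tested, and 3 were KDM2A-higher and 2 H3K36me2-higher, where 12% and 6.53% of all tested starts were. Pax5, the factor that fixes B cell identity, was covered to 53.2%, 81.8% and 94.3% by KDM2A and to 0%, 15.2% and 24.5% by the mark (adjusted p = 0.0129). This call was lost without KDM2A replicate 2 (0.0543) or 3 (0.0520) and without H3K36me2 replicate 1 (0.0513), and with peaks of −log10 q of at least 3 (0.242). Spib, an ETS factor related to PU.1, held 100% under KDM2A in each list and 8.65%, 19.2% and 0% under the mark. Ciita, the master activator of MHC class II, was on the other side, with 0%, 14.5% and 0% under KDM2A and 76.0%, 59.5% and 100% under H3K36me2. Bank1, a B cell scaffold protein, was the other H3K36me2-higher gene. Cd79a, which signals for the B cell receptor, held 75.4%, 66.6% and 77.9% against 68.8%, 10.4% and 67.2%, and the groups overlap.

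Among 18 genes of the CD40, B cell receptor and IL-4 response, 16 had KDM2A and 13 had H3K36me2 at the start. The 6 KDM2A-higher genes were Bcl2l1, Ccnd2, Icam1, Stat6, Rel and Nfkb2, which encode a survival factor, a cyclin, an adhesion molecule, the IL-4 signal transducer and a pair of NF-κB subunits, and 0 genes were H3K36me2-higher (limma, 1 at an unadjusted p under 0.05). Over all tested starts 12% were KDM2A-higher and 6.53% H3K36me2-higher. Of the 6 genes, Ccnd2, Stat6 and Nfkb2 had no H3K36me2 in any list. They passed the filter through KDM2A alone and had to differ, so the count cannot be read as a result about this list. Stat6 held 40.2%, 63.3% and 49.0% against 0% in each list. Myc held 36.02%, 43.2% and 4.57% against 3.25%, 1.05% and 0% (adjusted p = 0.0934), and was called without KDM2A replicate 3 (0.0385) and when scaled (0.00850). In the HIF list of 20 symbols (21 genes, since 2 are named Aldoa), 17 had KDM2A and 15 the mark, and 17 have an island. Over all genes with an island the shares are 70.2% and 44.9%. Of 20 tested, Vegfa, Egln1, Egln2 and Ddit4 were KDM2A-higher, and Ankrd37 and a gene named Aldoa H3K36me2-higher. Vegfa and Egln2 had no H3K36me2 in any list, passed the filter through KDM2A alone and had to differ. Vegfa, the vascular growth factor, held 63.6%, 97.6% and 95.98% against 0%, and Hif1a itself 0% under KDM2A and 16.2%, 14.6% and 0% under the mark. At Mir155hg, the noncoding gene that gives rise to miR-155 and lies outside these fits, KDM2A covered 54.5%, 23.2% and 28.3% of the start window and H3K36me2 0% in each list.

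Lists of genes used in every cell were read against the genes with an island, of which 70.2% had KDM2A and 44.9% the mark at the start (44.0% and 34.6% of all genes). Of 75 cytosolic ribosomal protein genes, 74 had KDM2A at the start and 39 had H3K36me2, and 18 were KDM2A-higher and 0 H3K36me2-higher (limma, 1 at an unadjusted p under 0.05). The numbers were 76 and 36 of 94 for the respiratory chain and 61 and 36 of 78 for the mitochondrial ribosome (77 and 74 of them with an island), not far from the shares of island genes, where 9 of 82 and 8 of 67 tested genes were KDM2A-higher, near the 12% of all tested starts, and 1 each H3K36me2-higher. Of 67 genes of the histone clusters, 62 had KDM2A and 56 the mark, with median coverage of 36.9% and 17.5% of the window. Of 394 zinc finger genes named Zfp, 208 had KDM2A and 192 the mark at the start, and over their bodies the mark was higher at 61 and KDM2A at 10 of 216 tested, near the 33.5% and 6.69% of all tested bodies. Hox and olfactory receptor genes, families known mainly from other tissues, held little of either. Of 39 Hox genes, 31 of them with an island, 2 had KDM2A and 0 had the mark. Of 1094 olfactory receptor genes, none with an island, 0 had KDM2A and 27 had the mark.

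**Figure D5:**
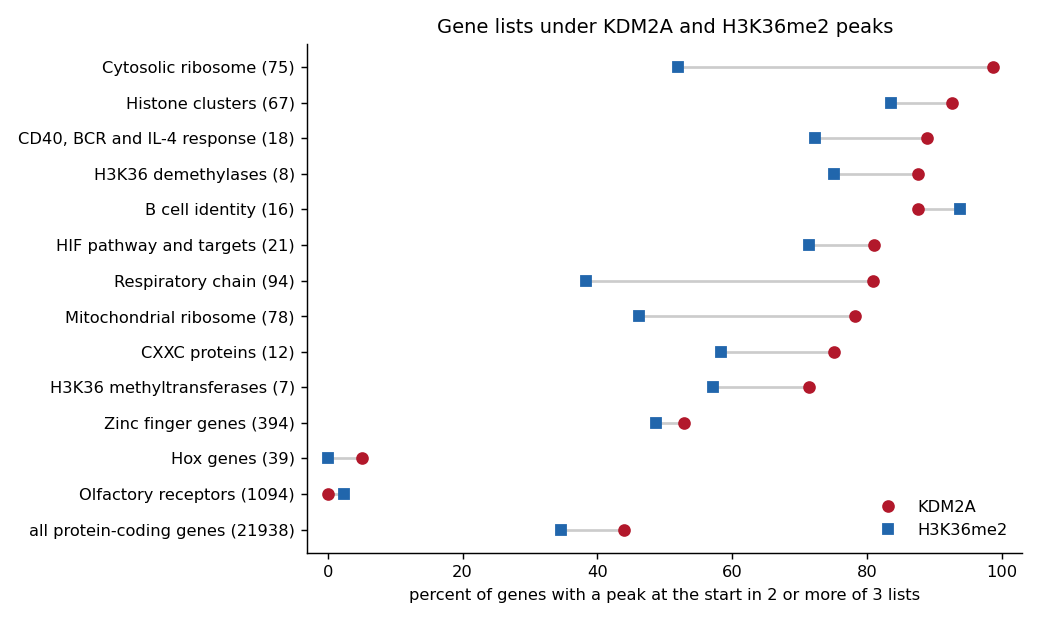
Percent of the genes of each list with a KDM2A or an H3K36me2 peak at the start in at least 2 of 3 lists, with the number of genes in brackets and all protein-coding genes for comparison. The cytosolic ribosome has KDM2A at 98.7% and H3K36me2 at 52.0% of its genes, and the B cell identity genes and olfactory receptors have the mark at more genes than the enzyme.

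Markers of cell types checked the label as far as a peak at a gene can. Over all genes 44.0% had KDM2A and 34.6% the mark at the start. Of 10 B cell markers, 9 had KDM2A and 10 the mark, with a mean coverage of 43.8% to 46.6% and 30.9% to 42.6% of the window over the lists. Of 11 T cell markers, 2 had KDM2A and 6 the mark, with mean coverage of 6.48% to 9.09% and 18.8% to 31.1%. The myeloid markers had KDM2A at 0 and the mark at 5 of 11 genes, with mean coverage of 0% to 3.49% and 14.6% to 25.01%. Of 12 T cell and myeloid markers tested, Cd28, Cd3d, Itgam, Adgre1 and Csf1r were H3K36me2-higher, as was the erythroid marker Hbb-bs, where 6.53% of all tested starts were. Apart from Adgre1 these had no KDM2A in any list and passed the filter through H3K36me2 alone, so they had to differ and their count supports nothing about the lists. Itgam, the integrin of myeloid cells, held 93.5%, 47.9% and 70.5% under the mark and 0% under KDM2A. The T cell marker Themis and the myeloid markers Cd14, S100a8, S100a9 and Cebpa were at 0 in all 6 lists. Of 10 erythroid and platelet markers 1 had KDM2A and 3 the mark, of 4 plasma cell markers 2 and 3, of 5 brain markers 1 and 0 (the former Gfap, known from astrocytes, with the 4 neuron genes at 0 in all 6 lists), and of 5 hepatocyte markers 0 and 0. The part of other cells of the spleen in the H3K36me2 lists was not tested.

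The distance between the antibodies was smaller in WT than in KO cells for position at gene starts. The promoter/TSS share of KDM2A minus that of H3K36me2 was 31.8 points in WT and 43.2 points in KO, a difference of −11.4 points (exact permutation test over 400 arrangements of the genotypes within each antibody, p = 0.005, adjusted p = 0.01 over 4 measures). For the island share the distance was 30.1 and 41.9 points, a difference of −11.8 (exact p = 0.005, adjusted p = 0.01). With lists paired by replicate number the exact permutation p was 0.1 for each, the smallest that 3 against 3 allows. With the 15384 peaks of highest fold from each of the 12 lists, the differences were −3.19 points (exact p = 0.07) and −1.49 points (exact p = 0.195). Without replicate 1, 2 or 3 the exact p was 0.0556 for each, the smallest that the remaining lists allow, with differences of −8.73, −12.2 and −13.2 points for the promoter/TSS share and −8.76, −12.8 and −13.9 points for the island share. For the median width of peaks the distance was −293.5 bp (WT) and −132 bp (KO, exact p = 0.22), and in the intragenic share −15.7 and −18.8 points (exact p = 0.37).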

How the data were processed

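The members and gene lists were chosen with earlier results of these data known. The authors ran nf-core/chipseq 1.2.2, in which BWA mapped the reads to GRCm38 and MACS2 called broad peaks in each library, without pooling. Each deposited list gives a fold ratio over control, −log10 of a p-value and of a q-value, and a score, which is not used here. The lowest deposited −log10 q is 1.00. Read filters and the caller's version are not given in the sources used here, and the lists hold no counts, so the depth per list is unknown and no counting interval is given.

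Genes came from GENCODE M21 and sequence from GRCm38.p6. CpG islands were computed from repeat-masked sequence (running score of 17 per CpG and −1 per other base, over 200 bp, GC of at least 50%, observed over expected CpG above 0.6). Gene symbols were taken from the annotation, without strand of reads, so overlapping genes share peaks. Per-list values were compared with exact permutation tests in Python 3.11.15 (numpy 2.4.6, pandas 2.3.3, scipy 1.17.1). Coverage of start windows and bodies was tested with limma 3.58.1 (trend and robust, statmod 1.5.0) in R 4.3.3, with Benjamini-Hochberg adjustment, after tests on simulated data. Named genes were the 5 with the largest difference in each direction among those called and not overlapping between antibodies (ties by name), with 13 genes chosen for their roles. Named sites were the 3 of highest mean fold per antibody among intervals in all 3 lists. Some of these genes and sites are not reported here. Lists are described by counts. Alternatives were stricter peaks, equal numbers of peaks, scaled or ranked coverage, no filter, a replicate block, each list left out in turn, single sexes, and other windows, flanks and overlaps.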

Additional observations from a re-analysis of the deposited data

Results flagged for a closer look

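The distance between KDM2A and H3K36me2 differed between genotypes for 2 of 4 measures by a test of the difference itself. The promoter/TSS share gave −11.3872 points (WT distance minus KO distance) and the CpG island share −11.8363 points (exact permutation test, p = 0.005 and adjusted p = 0.01 for each). Paired by replicate number, each had an exact permutation p of 0.1. Without replicate 1, 2 or 3 the exact p was 0.0556 for each, the smallest that the remaining lists allow. The promoter/TSS share of the KO lists was 61.1%, 60.4% and 53.4% for KDM2A and 16.6%, 14.3% and 14.2% for H3K36me2. The KO lists of KDM2A held 15664, 15384 and 21702 peaks, fewer than any WT list of KDM2A. Those of H3K36me2 held 106720, 37447 and 45180 peaks, the first above and the others below every WT list of the mark. With the 15384 peaks of highest fold from every list the values were −3.19 points (exact permutation test, p = 0.07) and −1.49 points (p = 0.195). What else in the lists moved with the genotype was not tested.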

How the results depend on the processing

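Of 213 alternative values of the 21 results that answer a comparison, 7 turned their direction. The exact tests between the WT lists cannot pass 0.05 under any alternative, so only their directions and sizes are read. With peaks of −log10 q of at least 3, the KDM2A minus H3K36me2 difference turned for the number of peaks (4369), bases covered (7136806 bp), median width (404.8 bp), genes with a body under peaks (1093.7) and H3K36me2 at KDM2A promoter centres minus flank (0.0409 points). With equal numbers of peaks it turned for genes with a body under peaks (1452.7) and for the WT minus KO distance in the intragenic share (−0.769 points), and the distances in promoter/TSS share (−3.19) and island share (−1.49) lost their calls. Leaving out a replicate gave −13.2 to −8.73 and −13.9 to −8.76 points for these. The cause was not tested.

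Counts of limma calls moved by over 1.5 times as follows. At starts, KDM2A-higher genes numbered 6290 scaled to each list's genome share and 4017 with equal numbers, and 655 to 1087 with a list left out. H3K36me2-higher starts numbered 1246 by rank within lists, 106 with equal numbers and 0 with stricter peaks (limma, 0 also at an unadjusted p under 0.05), and 293 to 812 with a list left out. At bodies, KDM2A-higher genes numbered 1692 scaled, 1496 by rank, 173 without a filter, 163 with stricter peaks, 302 with equal numbers and 472 to 840 with a list left out. H3K36me2-higher bodies numbered 2160 by rank, 635 without a filter, 57 with equal numbers and 0 with stricter peaks (limma, 2 at an unadjusted p under 0.05), and 1885 to 4109 with a list left out. Fewer genes were tested with stricter peaks (4060 starts and 1183 bodies). Body differences turned for genes that were not called, at Ash1l (5.40 ranks, 0.397 with equal numbers), Kdm2b (−1.55 without KDM2A replicate 1, and up to 4.10 with another list left out), Setd2 (0.0210 with equal numbers) and Hif1a (0.410 scaled, 7.68 by rank, 1.13 stricter, 0.381 with equal numbers).

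Whether same-numbered lists share an animal or chromatin is not known, and correlations over bins cannot decide it. Same-numbered KDM2A and H3K36me2 lists had correlations of deviations of −0.0585, 0.0104 and 0.00900 over 100-kb bins, and no list correlated best with its own number. With the replicate block, 1452 starts were KDM2A-higher and 955 H3K36me2-higher, and 479 and 2045 bodies. The WT minus KO distances of −11.4 and −11.8 points had an exact p of 0.1 with the block, the smallest that 3 against 3 allows. Depth is unknown, which limits every count of peaks.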
